A study of Mus musculus with 6 samples.

Results

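Transcript levels of 10 genes of the epithelial and mesenchymal transition were examined in V6.5 mouse embryonic stem cells carrying a doxycycline-inducible hairpin. The genes were taken from a list of names and not by their values, though earlier results of these data were known. They were Cdh1 and Epcam on the epithelial side, and Cdh2, Vim, Snai1, Snai2, Zeb1, Zeb2, Twist1 and Twist2 on the mesenchymal side. All 10 were read by 1 probe set each, out of 19938 genes measured. The 6 samples, each on 1 GeneChip Mouse Gene 1.0 ST array, were cells with hairpin shRNA1 with and without doxycycline (dox), cells with hairpin shRNA2 with and without dox, and cells with a Scrambled hairpin with and without dox. Both numbered hairpins were directed at Pcgf6, a polycomb RING finger gene of the variant repressive complex PRC1.6, and are called hairpin 1 and hairpin 2. Dox was given at 1 µg/ml, for a time the labels do not state. Cells of all groups shared the V6.5 background, a medium with serum and leukemia inhibitory factor, and a layer of mitomycin-inactivated mouse embryo fibroblasts as feeders. The labels do not say whether a hairpin line was a single clone, nor which cells were removed before RNA was extracted. Values are log2 expression on the authors' scale.

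Epithelial cells hold together through E-cadherin, the product of Cdh1, and through other surface proteins such as the one encoded by Epcam. In the transition to mesenchyme these genes are repressed by zinc finger and basic helix-loop-helix factors of the Snai, Zeb and Twist families, and N-cadherin (Cdh2) and the intermediate filament protein vimentin (Vim) take their place. Embryonic stem cells are of epithelial character and depend on E-cadherin for compact colonies, and reprogramming of fibroblasts passes through the reverse transition. Fibroblasts, including those used as feeders, express the mesenchymal genes.

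The knockdown was present on the arrays: Pcgf6 measured 9.39 and 9.27 with dox under hairpins 1 and 2, against 11.56 and 11.70 without, and 11.82 against 11.80 in the scrambled pair. Stem-cell markers were high on all arrays, with the mean of the 10 listed (Pou5f1, Sox2 and Nanog among them) between 11.86 and 12.10. Of 20 feeder fibroblast markers, 19 were measured, and 1 of these, Fap, lay below the lower quartile of all 6 arrays. The mean of the feeder list was 9.61 with and 9.61 without dox under hairpin 1, 10.12 and 9.64 under hairpin 2, and 9.26 and 8.76 in scrambled cells. Its summed linear level ran from 29274 to 37079 in induced hairpin cells and from 27099 to 28815 in uninduced hairpin cells, and was 23813 and 16590 in scrambled cells with and without dox. All 10 transition genes lay above the lower quartile of each array, which ranged from 5.50 to 5.56.

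The epithelial genes were the steadiest of the set. Cdh1 measured 12.57 with and 12.58 without dox under hairpin 1, 12.54 and 12.53 under hairpin 2, and 12.70 and 12.64 in scrambled cells. The whole span of its 6 arrays was 0.17 on the log2 scale, or 1.13-fold. Epcam, whose product is a homophilic adhesion molecule and a common marker of undifferentiated stem cells, measured 10.79 with and 10.86 without dox under hairpin 1, 10.89 and 11.09 under hairpin 2, and 10.84 and 10.94 in scrambled cells. Epcam was thus the lower with dox in each line, by 0.07 to 0.20. With dox in Pcgf6-hairpin cells Cdh1 differed by 0.0023 (SE 0.08, 95% interval -0.20 to 0.20, n = 2 against 2) and Epcam by -0.13 (SE 0.11, interval -0.40 to 0.13), with limma adjusted p of 0.997 and 0.774. The interval of Cdh1 excludes a change beyond 1.15-fold in either direction under this fit.

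The 250 bases upstream of the Epcam start site and of the Snai1 start site are printed here because they hold the hexamer CACCTG or its reverse complement CAGGTG, the core bound by Snai and Zeb proteins, shown in capitals. Sequences are from RefSeq, build GRCm38.p6, plus strand, 5′ to 3′.
Epcam, chr17:87635729-87635978: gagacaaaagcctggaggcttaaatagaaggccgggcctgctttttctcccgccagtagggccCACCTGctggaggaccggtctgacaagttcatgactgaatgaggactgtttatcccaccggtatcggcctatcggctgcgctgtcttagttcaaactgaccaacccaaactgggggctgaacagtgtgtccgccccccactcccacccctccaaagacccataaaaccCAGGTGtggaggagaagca
Snai1, chr2:167537945-167538194: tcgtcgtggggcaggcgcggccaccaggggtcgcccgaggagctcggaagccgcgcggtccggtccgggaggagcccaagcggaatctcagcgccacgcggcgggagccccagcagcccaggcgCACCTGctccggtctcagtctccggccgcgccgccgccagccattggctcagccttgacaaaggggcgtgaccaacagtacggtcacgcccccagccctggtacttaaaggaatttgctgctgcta
The Epcam window holds a copy that begins 187 bases before the start site and another that begins 19 bases before it, and the Snai1 window holds 1 that begins 126 bases before it. Windows are reported for 6 of the 10 genes, and Vim, Zeb2, Twist1 and Twist2 had no copy in theirs. Cdh1 and Snai2 had no window in the source, and Cdh2 and Zeb1 were left out by choice. Whether windows of these genes hold the hexamer is not reported here. Of 32851 mouse promoter windows of this length, 17.2% hold the hexamer on either strand, so a match describes the letters only.

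**Figure D1:**
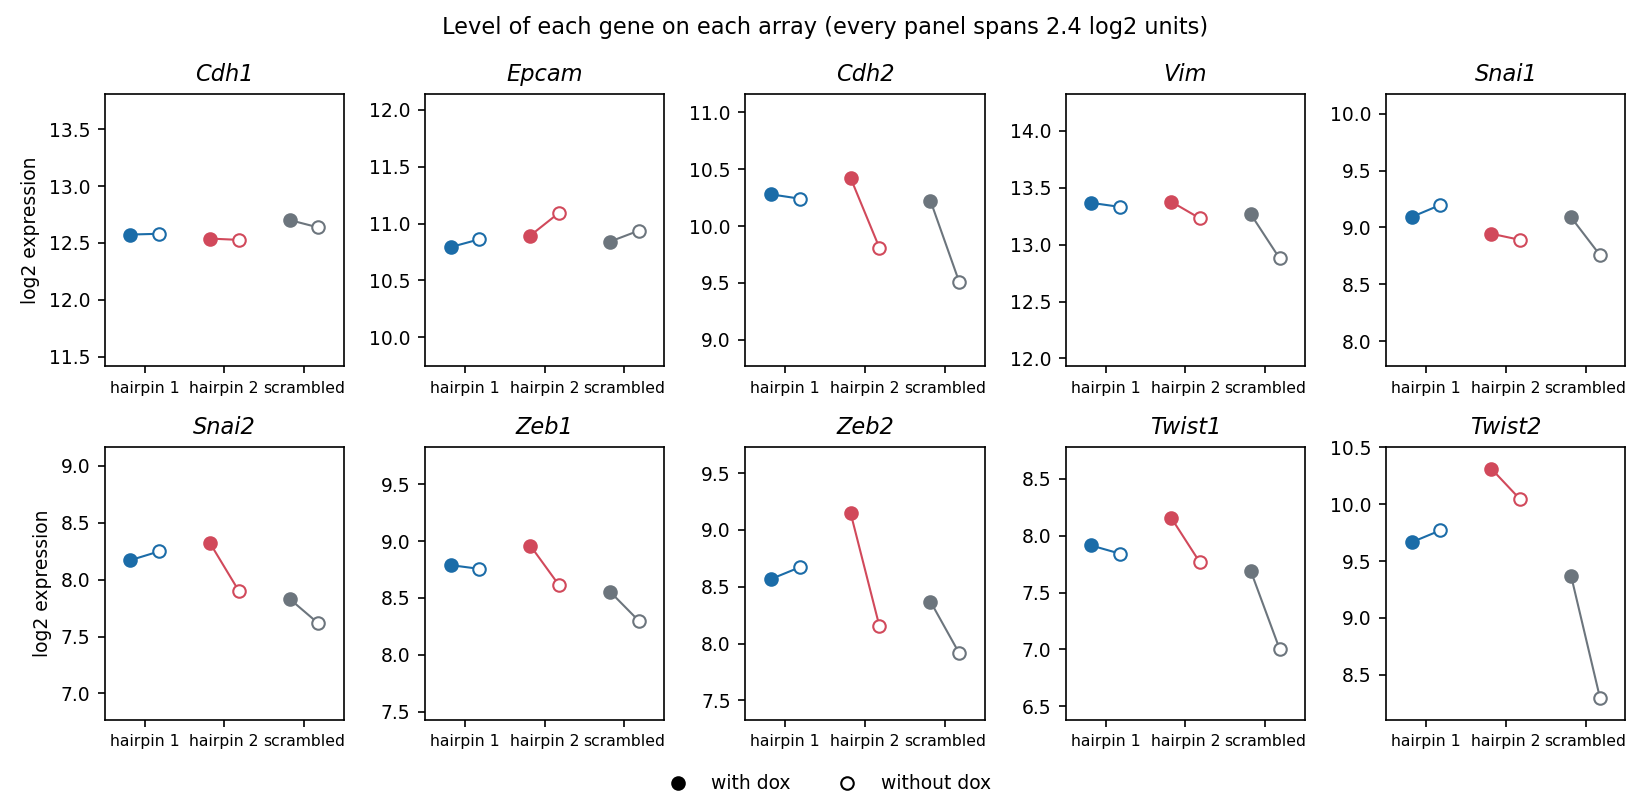
Log2 expression (y axis) of each of the 10 genes on each of the 6 arrays, by line (x axis), with dox as filled and without dox as open points joined within a line. Cdh1 and Epcam lie nearly level across lines, while the uninduced scrambled array is the lowest point in the panels of the 8 mesenchymal genes.

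Among the structural mesenchymal genes, Cdh2 measured 10.28 with and 10.24 without dox under hairpin 1, 10.42 and 9.81 under hairpin 2, and 10.22 and 9.51 in scrambled cells. The uninduced arrays of hairpin 2 and of scrambled cells were the low ones for Cdh2, and the other four lay close together. Vim measured 13.37 with and 13.33 without dox under hairpin 1, 13.38 and 13.23 under hairpin 2, and 13.27 and 12.88 in scrambled cells. The uninduced scrambled array stood below the other five for Vim. In Pcgf6-hairpin cells the change with dox was 0.32 (SE 0.15, n = 2 against 2, limma adjusted p = 0.613) for Cdh2 and 0.09 (SE 0.09, adjusted p = 0.816) for Vim, neither past the threshold.

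The Snai genes encode zinc finger repressors of Cdh1. Snai1 measured 9.09 with and 9.20 without dox under hairpin 1, 8.94 and 8.89 under hairpin 2, and 9.09 and 8.76 in scrambled cells. Snai2, also called Slug, measured 8.17 with and 8.25 without dox under hairpin 1, 8.32 and 7.90 under hairpin 2, and 7.83 and 7.62 in scrambled cells. For Snai1 the Pcgf6-hairpin groups overlapped, with dox 9.02 ± 0.10 and without dox 9.04 ± 0.22 (SD, n = 2 each). For Snai2 they overlapped as well, with dox 8.25 ± 0.11 and without dox 8.08 ± 0.24 (SD, n = 2 each), and both scrambled arrays lay below all 4 hairpin arrays.

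The Zeb genes encode zinc finger and homeodomain repressors that act with the CtBP corepressors. Zeb1 measured 8.79 with and 8.76 without dox under hairpin 1, 8.96 and 8.61 under hairpin 2, and 8.55 and 8.30 in scrambled cells. Zeb2 measured 8.57 with and 8.67 without dox under hairpin 1, 9.15 and 8.15 under hairpin 2, and 8.37 and 7.92 in scrambled cells. The difference of 0.99 (1.99-fold) for Zeb2 under hairpin 2 was the widest dox change of any of the 10 genes in a Pcgf6-hairpin line, and hairpin 1 gave -0.10. The estimate over both hairpins was accordingly wide for Zeb2, at 0.44 (SE 0.23, interval -0.11 to 1.00, limma adjusted p = 0.651), and Zeb1 measured 0.19 (SE 0.10, adjusted p = 0.657).

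The Twist genes encode basic helix-loop-helix factors of mesoderm and mesenchyme. Twist1 measured 7.91 with and 7.84 without dox under hairpin 1, 8.16 and 7.77 under hairpin 2, and 7.69 and 7.01 in scrambled cells. Twist2 measured 9.67 with and 9.77 without dox under hairpin 1, 10.31 and 10.04 under hairpin 2, and 9.37 and 8.30 in scrambled cells. Twist2 had the widest span of the 10 genes, 2.01 on the log2 scale or 4.03-fold, and for both Twist genes the scrambled arrays were the lowest. By group, Twist2 stood at 9.99 ± 0.46 in induced and 9.91 ± 0.19 in uninduced hairpin cells (SD, n = 2 each), which differ by less than their spread, and at 9.37 and 8.30 in induced and uninduced scrambled cells. The change with dox in Pcgf6-hairpin cells was 0.23 (SE 0.11, limma adjusted p = 0.616) for Twist1 and 0.08 (SE 0.21, adjusted p = 0.947) for Twist2.

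Set side by side, the lines differed in what accompanied dox. Under hairpin 1 the 8 mesenchymal genes lay between -0.11 and 0.07, with 4 above 0 and a median of -0.02, while 50.4% of all genes were above 0. Under hairpin 2 all 8 were above 0, between 0.05 and 0.99 with a median of 0.37, where 45.8% of all genes were above 0. In the scrambled pair, which carries no Pcgf6 hairpin, all 8 were above 0 as well, between 0.22 and 1.07 with a median of 0.42, where 46.5% of all genes were above 0. At 1.5-fold higher stood 2 genes under hairpin 2 (Cdh2 and Zeb2) and 3 in the scrambled pair (Cdh2, Twist1 and Twist2), against 2.17% and 1.48% of all genes, and 0 under hairpin 1, against 0.627%. None of the 10 was 1.5-fold lower in any line, where 0.241%, 0.446% and 0.211% of all genes were under hairpin 1, hairpin 2 and scrambled. The feeder list had medians of -0.02, 0.52 and 0.59 in the same 3 pairs, with 7, 18 and 18 of its 19 genes above 0. Hairpins 1 and 2 lay on opposite sides of 0 for 5 of the 10 genes, where 42.8% of all genes did so. The array pairs are single, so the differences between lines carry no test.

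**Figure D2:**
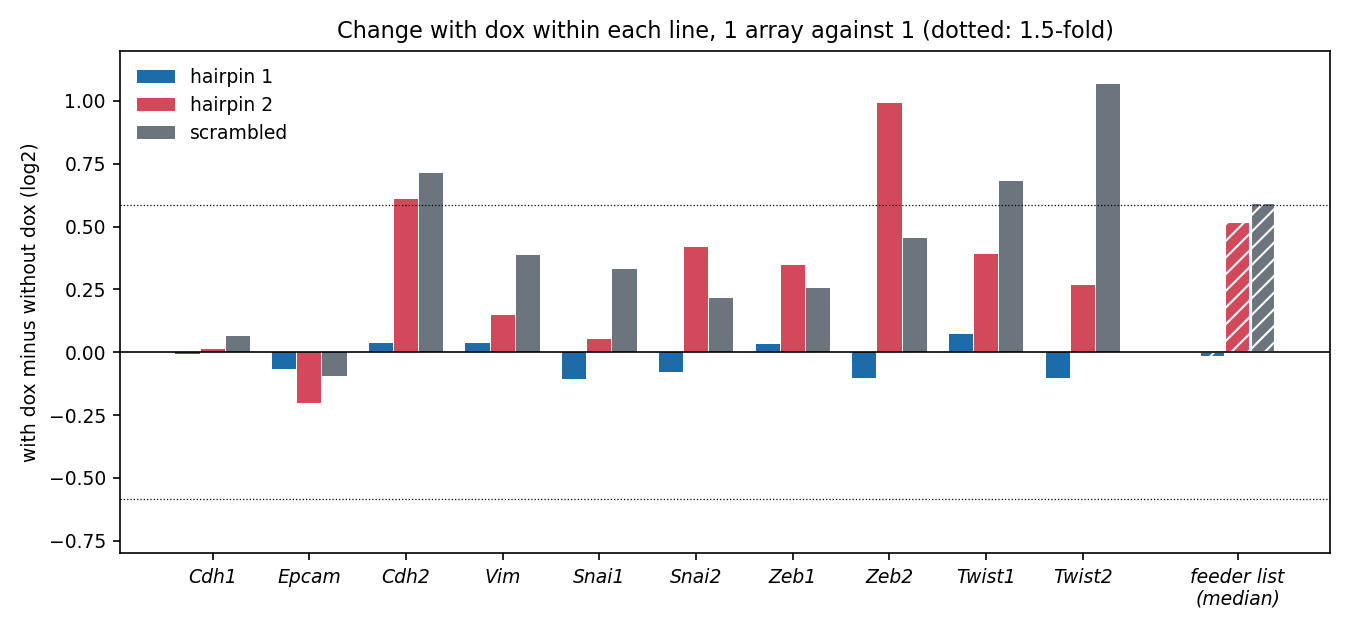
Log2 expression with dox minus without dox (y axis) for each gene (x axis) in cells with hairpin 1, hairpin 2 and the scrambled hairpin, 1 array against 1, with the median of the 19 feeder markers at the right. The mesenchymal genes are near 0 under hairpin 1 and above 0 under hairpin 2 and in scrambled cells, as is the feeder list.

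In the test over both Pcgf6 hairpins, 0 of the 10 genes passed the threshold of an adjusted p of 0.05 by limma, and 0 had an unadjusted p under 0.05, which 8.75% of all genes had. Over all genes 0.201% passed with all arrays, or 40 genes. That number was 14 without the uninduced array of either hairpin, 24 without induced hairpin 1 and 26 without induced hairpin 2. Of the 8 mesenchymal genes 7 had an estimate above 0, as did 47.5% of all genes, and their median was 0.18, beside -0.0073 for all genes. The upper limits of the 95% intervals were highest for Zeb2 (2.00-fold), Cdh2 (1.61-fold) and Twist2 (1.51-fold).

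A second test asked whether the dox change under the Pcgf6 hairpins differed from that of the scrambled pair. None of the 10 estimates was above 0, where 50.3% of all genes were. They lay between -0.98 and -0.0090, and a value below 0 means a lower dox change under the Pcgf6 hairpins. The direction did not hold for 4 of the 10: with the feeder mean as a covariate Epcam stood at 0.019, Snai2 at 0.022, Zeb1 at 0.017 and Zeb2 at 0.27, and the same 4 were above 0 without the induced hairpin 1 array. Zeb2 was also above 0 with quantile normalization (0.012) and with median centring (0.029). By limma 0 of 10 passed, where 0.0702% of all genes did. Those were 14 genes with all arrays and 4 with median centring. Leaving out an uninduced hairpin array, of hairpin 1 or of hairpin 2, gave 0 genes, and leaving out the induced array gave 4 for hairpin 1 and 3 for hairpin 2. Twist2 had the widest difference, -0.98 (SE 0.37, 95% interval -1.87 to -0.10, adjusted p = 0.999), and was the 1 gene of the 10 with an unadjusted p under 0.05, a level that 4.55% of all genes reached. With the hairpin line as a block the estimate of Twist2 was the same and its adjusted p 0.452, and again 0 of 10 passed, where 0.115% of all genes did. Twist1 differed by -0.45 (SE 0.19), Cdh2 by -0.39 (SE 0.26), Snai1 by -0.36 (SE 0.22) and Vim by -0.30 (SE 0.15). Each of these estimates uses the single scrambled pair, whose uninduced array was the lowest of all for each of the 8 mesenchymal genes. The same array enters the scrambled dox change and the comparison of lines before induction. The directions of these results for the mesenchymal genes are therefore not independent of each other.

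Pooling the 3 lines, dox arrays were set against arrays without dox. Cdh2 averaged 10.31 ± 0.10 with dox and 9.85 ± 0.37 without (SD, n = 3 each), a difference of 0.45 (SE 0.17, interval 0.06 to 0.85, limma adjusted p = 0.673), higher with dox in 3 of 3 lines. Zeb2 differed by 0.45 (SE 0.24), Twist2 by 0.41 (SE 0.44) and Twist1 by 0.38 (SE 0.22), and 0 of the 10 genes passed. All 8 mesenchymal estimates were above 0, where 45.2% of all genes were. Over all genes 0% passed (smallest adjusted p 0.644), and 7.16% had an unadjusted p under 0.05 (3.2% with a higher level), among them Cdh2 alone of the 10. With the line as a block, which uses the pairing of induced and uninduced arrays, 4 of the 10 were under 0.05 before adjustment (Cdh2, Twist1, Zeb1 and Zeb2), against 11.6% of all genes, and 0 passed after it. The lowest of their adjusted p was 0.345, for Cdh2. Without the induced scrambled array 54 of all genes passed and again 0 of the 10. Vim, Zeb1, Twist1 and Cdh2 were higher with dox in all 3 lines, that is 4 of 10, where 15.2% of all genes were.

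The lines were also compared before induction. Without dox, Twist2 measured 9.77 and 10.04 under hairpins 1 and 2, against 8.30 in scrambled cells, a difference of 1.61 (SE 0.26, 95% interval 0.98 to 2.23, n = 2 against 1, limma adjusted p = 0.245) or 3.05-fold. Twist1 measured 7.84 and 7.77 in the hairpin cells, against 7.01 in scrambled cells, a difference of 0.80 (SE 0.13, interval 0.48 to 1.12, adjusted p = 0.245). Neither Twist gene passed, and the smallest adjusted p of any gene was 0.183. The other differences were 0.51 (SE 0.18) for Cdh2, 0.50 (SE 0.28) for Zeb2, 0.46 (SE 0.16) for Snai2, 0.40 (SE 0.11) for Vim, 0.39 (SE 0.13) for Zeb1 and 0.29 (SE 0.15) for Snai1, while Cdh1 measured -0.08 (SE 0.10) and Epcam 0.04 (SE 0.13).

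In this baseline comparison 0 of 10 genes passed, as did 0% of all genes. An unadjusted p under 0.05 was reached by 6 of the 8 mesenchymal genes and by neither epithelial gene, where 8.06% of all genes reached it, 4.87% in the higher direction. All 8 mesenchymal estimates were above 0, as were 49.8% of all genes. Both uninduced hairpin arrays were above the uninduced scrambled array for all 8 mesenchymal genes, against 33.4% of all genes. The uninduced scrambled array was the lowest of the 6 for all 8, against 18.8% of all genes. That array is also part of the scrambled dox change and of its difference from the Pcgf6 hairpins, so these are not separate results.

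**Figure D3:**
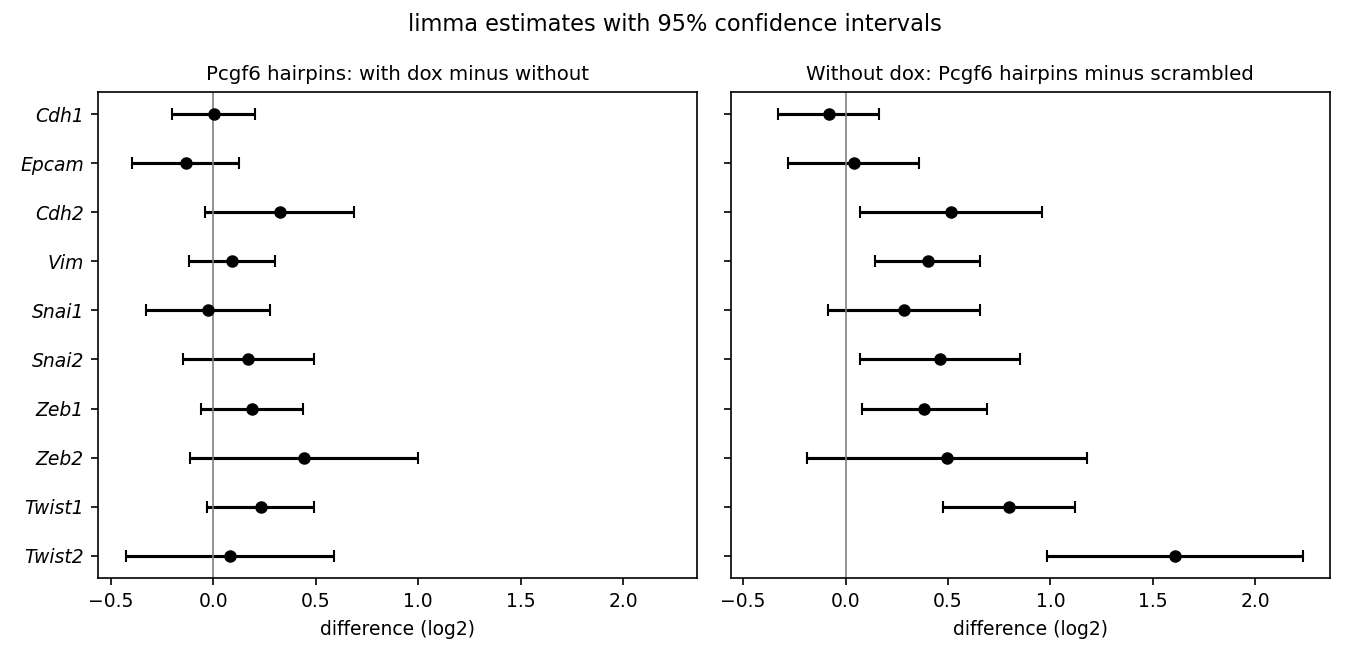
limma estimates (points) and 95% confidence intervals (bars) on the log2 scale for the 10 genes, for induced minus uninduced Pcgf6-hairpin cells (left) and for uninduced Pcgf6-hairpin minus uninduced scrambled cells (right). On the left every interval includes 0, and on the right those of Cdh2, Vim, Snai2, Zeb1, Twist1 and Twist2 lie above it, with Twist2 at 1.61.

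The feeder markers differed in the same direction as the mesenchymal genes in this comparison. All 19 measured markers were higher in both uninduced hairpin arrays than in the uninduced scrambled array, where 33.4% of all genes were. Their median difference was 0.85, beside -0.00053 for all genes. In a whole-culture sample more cells of a type and more RNA per cell cannot be told apart. The order of the arrays for Twist2, from lowest to highest, was scrambled without dox, scrambled with dox, hairpin 1 with dox, hairpin 1 without dox, hairpin 2 without dox and hairpin 2 with dox, and the mean of the feeder list had the same order, although its hairpin 1 arrays, at 9.61 each, are tied to the precision given. The other mesenchymal genes departed from that order. For Snai2 the uninduced hairpin 2 array lay below the hairpin 1 pair, and for Zeb1 and Twist1 that pair was also reversed. For Cdh2, Vim and Zeb2 the uninduced hairpin 2 array was second lowest, below that of induced scrambled cells. For Snai1 the highest arrays were those of hairpin 1. With the feeder mean as a covariate the baseline difference of Twist2 was 0.51 (SE 0.32), of Twist1 0.40 (SE 0.29), of Cdh2 0.32 (SE 0.41), of Snai2 0.24 (SE 0.37), of Zeb1 0.11 (SE 0.30) and of Zeb2 -0.42 (SE 0.47), while Vim had 0.39 (SE 0.29) and Snai1 had 0.56 (SE 0.35). Stem-cell markers had a median difference of -0.19 in the same comparison, with 2 of 10 above 0, where 49.8% of all genes were.

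**Figure D4:**
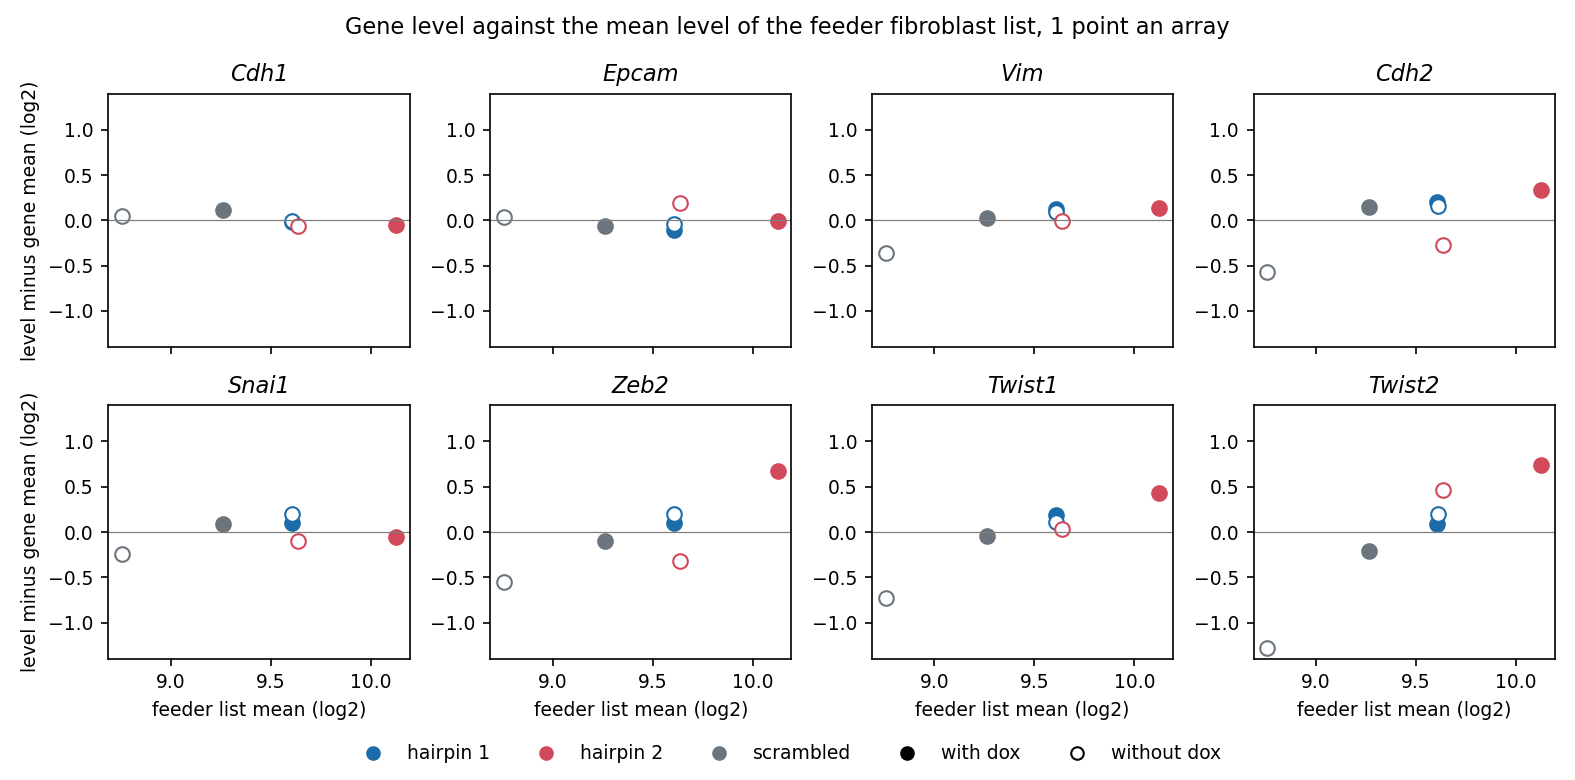
Level of 8 of the genes as a difference from the gene's own mean (y axis, log2) against the mean of the 19 feeder markers (x axis, log2), 1 point an array. The points of Twist2 climb from the uninduced scrambled array, at a feeder mean of 8.76, to induced hairpin 2, at 10.12, and those of Cdh1 and Epcam stay near 0.

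For each of the 6 genes that spanned at least 1.5-fold over the arrays, as 9.47% of all genes did, the 3 genes of most similar profile were found by the root mean square difference of mean-centred log2 levels over the 6 arrays. For Twist2 these were Ppbp (0.045), which encodes a platelet chemokine, Wnt5a (0.082), which encodes a secreted Wnt ligand, and Olfml3 (0.095). For Zeb2 they were Stom (0.070), Emp2 (0.079) and Pak3 (0.084), and for Twist1 H2bc4 (0.033), Chst2 (0.049) and Gxylt2 (0.059). For Zeb1 they were Calu (0.017), Itm2b (0.019) and Tbc1d2b (0.025). For Cdh2 they were Fndc3b (0.034), Pam (0.049) and Capn2 (0.049), and for Snai2 9530068E07Rik (0.046), Mir100hg (0.047) and Sec24d (0.055). None of these 18 genes stood on the lists drawn up here. The lists together hold only 145 of the 19938 genes, so this count says little about the profiles.

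Further genes of epithelial identity formed a list of 23, all measured. Of these 0 rose and 0 fell with the Pcgf6 hairpins, where 0.201% of all genes passed. Their median change was 0.08 and 14 were above 0, where 47.5% of all genes were and their median was -0.0073. By limma 8 of the 23 had an unadjusted p under 0.05, in either direction, which 8.75% of all genes had. The 3 strongest were keratins of simple epithelium. Krt8 measured 11.69 with and 11.24 without dox under hairpin 1, 11.90 and 11.19 under hairpin 2, and 12.07 and 11.50 in scrambled cells. Krt19 measured 8.60 with and 8.17 without dox under hairpin 1, 8.82 and 7.93 under hairpin 2, and 9.01 and 8.56 in scrambled cells. Each induced array was above its uninduced partner for both keratins, including the scrambled pair. Over the 3 lines Krt19 differed by 0.59 (SE 0.17), Krt8 by 0.58 (SE 0.12) and Krt18 by 0.47 (SE 0.14), each with a limma adjusted p of 0.673 and higher with dox in 3 of 3 lines. Dsp, which encodes the desmosomal protein desmoplakin and was picked after its values were seen, differed by 0.35, 0.71 and 0.61 under hairpin 1, hairpin 2 and scrambled. Of the 23 genes 8 were higher with dox in all 3 lines, where 15.2% of all genes were. Others were lower in each line, for which the share of all genes was not computed. Among them, also picked after their values were seen, were Rab25 (-0.38, -0.21 and -0.46), Cldn7 (-0.20, -0.18 and -0.17) and Grhl2 (-0.26, -0.20 and -0.07). Before induction 4 of the 23 were higher in the hairpin cells than in scrambled cells, and the median was -0.22, where 49.8% of all genes were higher.

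A list of 21 further mesenchymal genes held 19 measured members, of which 0 rose and 0 fell, where 0.201% of all genes passed. Over both hairpins 17 were above 0 with a median of 0.20, where 47.5% of all genes were above 0 with a median of -0.0073. By limma 4 of the 19 had an unadjusted p under 0.05, which 8.75% of all genes had. The list was led by the receptor tyrosine kinase gene Axl (0.41, SE 0.20), the actin-binding caldesmon gene Cald1 (0.33, SE 0.13) and the forkhead gene Foxc1 (0.31, SE 0.13). Their limma adjusted p ran from 0.547 for Cald1 to 0.636 for Axl. By line the medians were 0.07, 0.34 and 0.50 under hairpin 1, hairpin 2 and scrambled, beside 0.00098, -0.02 and -0.01 for all genes. Axl differed by 0.07, 0.76 and 0.84 in that order. Before induction 18 of the 19 were higher in the hairpin cells than in scrambled cells, with a median of 0.46, where 49.8% of all genes were.

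Signals that drive or oppose the transition were read by a list of 20 genes of the TGF-beta and BMP pathways, of which 0 rose and 0 fell, where 0.201% of all genes passed. Over both hairpins 17 were above 0 with a median of 0.19, where 47.5% of all genes were above 0 with a median of -0.0073. By limma 4 of the 20 had an unadjusted p under 0.05, which 8.75% of all genes had. The TGF-beta receptor gene Tgfbr2 measured 0.41 (SE 0.16), the bone morphogenetic protein gene Bmp7 0.36 (SE 0.10) and the ligand gene Tgfb2 0.32 (SE 0.16), with limma adjusted p between 0.414 and 0.644. Bmp7, known for a role in the reverse transition, measured 8.35 with and 8.10 without dox under hairpin 1, 8.52 and 8.04 under hairpin 2, and 8.45 and 8.23 in scrambled cells. It was higher with dox in each line. Tgfbr2 differed by 0.06, 0.76 and 0.66 under hairpin 1, hairpin 2 and scrambled, and Tgfb2 by 0.16, 0.48 and 0.64. With an array left out the estimate of Tgfb2 ran from 0.084 to 0.55.

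**Figure D5:**
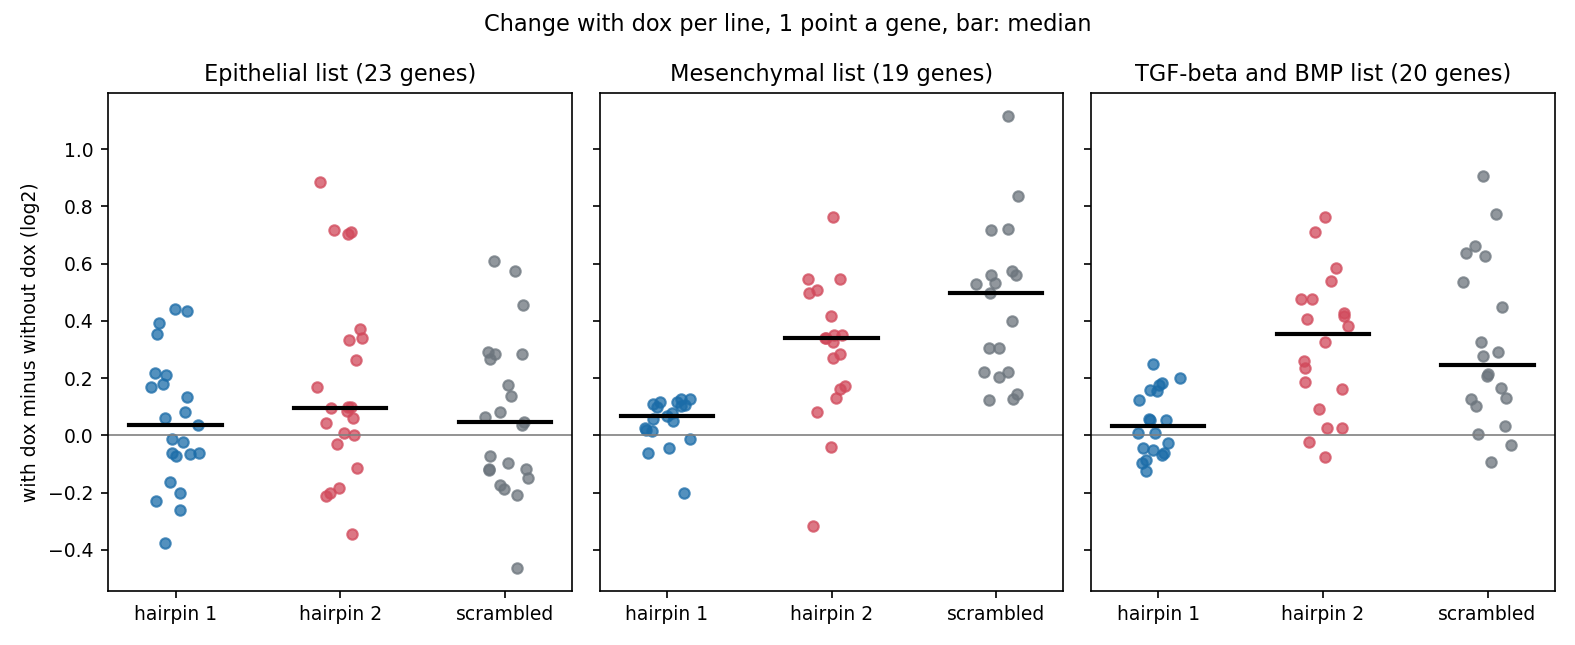
Log2 expression with dox minus without dox (y axis) for the genes of the epithelial, mesenchymal, and TGF-beta and BMP lists in each line (x axis), 1 point a gene with the median as a bar. The medians of the mesenchymal list are 0.07, 0.34 and 0.50 under hairpin 1, hairpin 2 and scrambled, and those of the epithelial list 0.04, 0.09 and 0.05.

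The partners of E-cadherin and of its repressors stood closer to 0. Of 11 catenin and nectin genes 0 rose and 0 fell, where 0.201% of all genes passed. The median was -0.03, and Nectin3 (-0.13, SE 0.09), Jup (0.13, SE 0.09) and Nectin1 (-0.10, SE 0.12) were the strongest. Of 13 genes for corepressors and dimerisation partners 12 were measured, and 0 rose and 0 fell, beside the same 0.201% of all genes. Their median was 0.0050. By limma 1 of these 12 and 0 of the 11 catenin and nectin genes had an unadjusted p under 0.05, beside 8.75% of all genes. Hdac2, which encodes a histone deacetylase, measured 0.29 (SE 0.09, limma adjusted p = 0.490), the LIM protein gene Ajuba -0.20 (SE 0.12) and Tcf12, which encodes a partner of Twist proteins, 0.19 (SE 0.09).

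MicroRNAs of the miR-200 family target Zeb1 and Zeb2, and their mature sequences are shown to give the 2 seeds (bases 2 to 8, in capitals) by which the family divides. Sequences are from RefSeq, build GRCm38.p6, 5′ to 3′.
mmu-miR-141-3p: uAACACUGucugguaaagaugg
mmu-miR-200a-3p: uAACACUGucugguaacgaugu
mmu-miR-200b-3p: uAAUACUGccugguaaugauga
mmu-miR-200c-3p: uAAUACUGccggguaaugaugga
mmu-miR-429-3p: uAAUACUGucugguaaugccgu
The array read precursor transcripts and not these mature forms. Of a list of 7 microRNA genes 6 were measured, and Mir200c, Mir141, Mir205 and Mir203 lay below the lower quartile of all 6 arrays. Mir200a, the brightest, measured 6.82 with and 6.84 without dox under hairpin 1, 6.59 and 6.84 under hairpin 2, and 6.99 and 6.81 in scrambled cells. With the hairpins Mir200a changed by -0.14 (SE 0.10, limma adjusted p = 0.754), Mir141 by -0.12 (SE 0.10) and Mir205 by 0.11 (SE 0.14). Of the 6 measured 0 passed, where 0.201% of all genes did.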

How the data were processed

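The deposited values are log2 expression per probe set. The submitters' processing notes name RMA and Affymetrix Power Tools, with no version given in these sources. RMA gives arrays a common distribution, which hides any shift that most genes share. Of 35556 probe sets 21789 had 1 gene symbol, and the brightest of each gene was kept (19938 genes). RefSeq GRCm38.p6 gave current names and sequences.

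The analysis used limma 3.58.1 in R 4.3.3 over all 6 arrays, with 1 mean per group (4 groups, 2 residual and 4.44 prior degrees of freedom) or, for the pooled comparison, 2 groups. Tests were two-sided, with Benjamini-Hochberg adjustment over all genes and a threshold of 0.05. Scrambled groups had 1 array each and were taken to vary like the others. In the fit with 4 groups, both residual degrees of freedom came from how hairpin 1 and hairpin 2 differed, with dox and without. The spread in that fit is therefore between different hairpin lines and not between repeats of a line. In the pooled fit it is between the lines within each dox group. The labels name no separate cultures, so p-values reflect only how these lines vary, and technical variation cannot be told apart from it. The number of arrays limits the precision. No batch is named in the labels. The same line gave each induced and uninduced array, which pairs them. Across genes, the deviation of a line's induced array correlated with that of its uninduced array at 0.181.

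The genes, lists and tests were chosen with earlier results of these data known. Named by rule were the 10 genes, the 3 strongest and any called genes of each list, and the 3 nearest profiles. Alternatives were quantile normalization, median centring, filters on dim genes, an intensity trend, the feeder mean as a covariate, the mean of all probe sets, the line as a block and leaving out each array. The fit was tested on simulated data. The simulated arrays were independent, without pairing by line or a feeder difference, so that test does not cover these features of the real arrays.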

Additional observations from a re-analysis of the deposited data

Results flagged for a closer look

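The lines with hairpin 1 and hairpin 2 moved to opposite sides of 0 with dox for 5 of the 10 genes. That is near the 42.8% of all genes that did so, and the count is not particular to this set. The difference between the lines was not tested, since each line has 1 array with dox and 1 without. The dox change under hairpin 2 minus that under hairpin 1 was 1.09 on the log2 scale for Zeb2, 0.50 for Snai2, 0.37 for Twist2, 0.16 for Snai1 and 0.018 for Cdh1, whose changes were 0.01 and -0.0068. The feeder list had medians of 0.52 under hairpin 2 and -0.02 under hairpin 1, and its part in these differences was not tested.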

How the results depend on the processing

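None of the 10 genes passed the threshold in any of the 4 tests under any alternative run. Over these alternatives 489 of their estimates kept the direction and 31 turned it. Part of the kept directions was fixed in advance. Filters on dim genes, the intensity trend and the line as a block can alter the error of an estimate but not its value. The mean of all probe sets equals the main value here, since each of the 10 genes had 1 probe set. Leaving out a scrambled array does not move the change in Pcgf6-hairpin cells. The number of all genes called with dox in Pcgf6-hairpin cells (40) came to 62 with an intensity trend, to 7 when genes in the dimmer 50% were dropped, and to 14 to 40 with an array left out. For the difference from scrambled (14) it was 4 with median centring, 9 and 4 without the dimmest 25% and 50%, 6 with the feeder covariate, 23 with the hairpin line as a replicate block and 0 to 4 with an array left out. For the 3 lines pooled (0) it was 0 to 54 with an array left out. The replicate block changed no call of the 10 genes.

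The estimates that turned direction are given here, and the cause was not tested. With the feeder covariate, the change in Pcgf6-hairpin cells was 0.052 for Snai1, -0.23 for Twist2 and -0.073 for Mir205. The difference from scrambled was then 0.019 for Epcam, 0.022 for Snai2, 0.017 for Zeb1 and 0.27 for Zeb2. The pooled difference was -0.10 for Twist2, and the baseline difference -0.15 for Epcam and -0.42 for Zeb2. The difference from scrambled for Zeb2 was 0.012 with quantile normalization and 0.029 with median centring. With an array left out, the change in Pcgf6-hairpin cells ran from -0.024 to 0.029 for Cdh1, -0.18 to 0.13 for Snai1, -0.0013 to 0.34 for Snai2, -0.24 to 0.40 for Twist2, -0.22 to 0.0063 for Nectin1 and -0.083 to 0.30 for Mir205. The difference from scrambled ran from -0.16 to 0.078 for Epcam, -0.22 to 0.13 for Snai2, -0.15 to 0.020 for Zeb1 and -0.30 to 0.28 for Zeb2. The pooled difference ran from -0.025 to 0.056 for Cdh1, -0.0029 to 0.22 for Snai1 and -0.13 to 0.75 for Twist2, and the baseline difference from -0.076 to 0.16 for Epcam.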
